A study of Mus musculus with 74 samples.

Results

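The liver libraries of the Pparα line made with an antibody against PPARα were examined at all 40253 peaks of the deposited tag table, 4 of the 74 libraries of the series. Of these, 2 came from livers labelled PPARa_WT (WT) and 2 from livers labelled PPARa_KO (KO), all of C57BL/6 mice of 8 to 12 weeks. The paper states that its mice were male. The KO mice are the whole-body Pparα-deficient line with the tm1Gonz allele, so the deletion is not limited to hepatocytes. The paper calls this line C57BL/6, but the stock name it gives also names another strain. Whether WT and KO livers shared the same background is not stated. The source of the WT controls is not given in the sources used here, and 2 to 4 immunoprecipitations were pooled per library. Nothing in the labels says that the 2 libraries of a genotype are separate animals, and p-values then measure only the spread between libraries.

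PPARα is a nuclear receptor of hepatocytes that senses fatty acids. It binds DNA as a heterodimer with RXR at a DR1 element, which is a pair of AGGTCA elements separated by 1 base, and it switches on the oxidation of fatty acids and the synthesis of ketone bodies during fasting. In chromatin immunoprecipitation with sequencing (ChIP-seq), DNA bound by the antibody's target is enriched and sequenced, and the signal at a site is the number of sequenced tags there. Livers without the receptor therefore show which tags the antibody collects by other means, the question that these 4 libraries address.

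The WT libraries held 14.1 and 13.1 M uniquely mapped tags and the KO libraries 14.6 and 13.6 M (10 M stands for 10000000). In WT livers 2.14% and 2.44% of all tags lay in the 40253 peaks, and in KO livers 0.652% and 0.581%. The mean share was 2.29% ± 0.213 (SD, n = 2) for WT libraries and 0.616% ± 0.0506 (SD, n = 2) in KO, 3.72 times lower, with no overlap. An exact permutation test (two-sided) gave p = 0.33, the smallest p that 2 against 2 libraries allow. In the 6541 peaks that overlap the deposited peak lists of both WT libraries, the share fell 5.97 times, from 1.00% and 1.08% to 0.182% and 0.168%. These peaks were chosen for being listed in both WT libraries, so part of the larger fall can come from that choice. The lists themselves hold 8975 and 11274 peaks in WT and 131 and 92 in KO. The median peak had 5 tags in each WT library and 2 in each KO library, where tags spread evenly over the genome would give 0.744 to 0.828. Of the 40253 peaks, 26464 overlap none of the 4 lists.

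The DNA under the strongest WT peak within 20000 bp of 6 known PPARα target genes is shown first, because these sites had the most WT tags near each gene. All are 160 bases of the plus strand of mm9 around the peak's centre, and capitals mark a DR1 with at most 2 mismatches of 12 where one lies in the window.
Plin2, chr4:86317817-86317976: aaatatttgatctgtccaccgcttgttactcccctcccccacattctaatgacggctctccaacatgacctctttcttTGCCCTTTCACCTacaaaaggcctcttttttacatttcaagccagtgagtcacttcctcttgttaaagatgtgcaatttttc
Fgf21, chr7:52866085-52866244: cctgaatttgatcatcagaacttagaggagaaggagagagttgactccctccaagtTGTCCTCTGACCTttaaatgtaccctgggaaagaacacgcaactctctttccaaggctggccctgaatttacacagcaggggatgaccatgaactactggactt
Pdk4, chr6:5448898-5449057: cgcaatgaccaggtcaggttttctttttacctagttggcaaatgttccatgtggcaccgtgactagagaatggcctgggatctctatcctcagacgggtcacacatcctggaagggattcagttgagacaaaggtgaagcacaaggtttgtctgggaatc
Cyp4a14, chr4:115170236-115170395: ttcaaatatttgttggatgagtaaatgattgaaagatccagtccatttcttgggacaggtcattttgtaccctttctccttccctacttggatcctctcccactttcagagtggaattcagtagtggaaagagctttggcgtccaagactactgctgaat
Cpt1a, chr19:3326476-3326635: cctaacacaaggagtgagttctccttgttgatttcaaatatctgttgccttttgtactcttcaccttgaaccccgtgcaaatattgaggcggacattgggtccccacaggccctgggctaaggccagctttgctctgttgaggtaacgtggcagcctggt
Cyp4a10, chr4:115186594-115186753: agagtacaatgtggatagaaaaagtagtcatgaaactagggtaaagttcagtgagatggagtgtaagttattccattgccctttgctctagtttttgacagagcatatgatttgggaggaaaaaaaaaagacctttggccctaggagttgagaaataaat
A DR1 lies in the windows of Plin2 and Fgf21. In the 200 bp searched, the Cyp4a10 site also has one, outside the bases shown. The peaks of Pdk4, Cyp4a14 and Cpt1a have none within 2 mismatches.

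Tags at these sites are given per 10 M tags of the library. Upstream of Pdk4, which encodes a kinase that blocks the use of glucose, the values were 25.5 and 32.1 in WT and 2.06 and 0.733 in KO. Upstream of Cyp4a14, a microsomal fatty acid hydroxylase, they were 21.2 and 22.9 in WT and 0.687 and 1.47 in KO. At both sites the KO libraries lay far below the WT libraries.

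The peak in the first intron of Cpt1a, which brings fatty acids into mitochondria, had 26.9 and 23.7 in WT and 1.37 and 2.2 in KO. The peak upstream of Cyp4a10, another fatty acid hydroxylase, had 36.8 and 41.3 in WT and 3.43 and 1.47 in KO. The WT libraries were again higher than the KO libraries at both sites. At Plin2, which coats lipid droplets, the values were 17.7 and 19.9 in WT and 3.43 and 2.2 in KO. At Fgf21, a fasting hormone, they were 4.25 and 9.94 in WT and 2.75 and 2.93 in KO, so the groups were close and the tags few.

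The peaks were compared with edgeR's quasi-likelihood test on the tag counts, with library size set to the total tags, and a peak was called lost if its log2 fold change was -1 or lower and its adjusted p (Benjamini-Hochberg) under 0.05. A second scaling, TMM, sets the typical peak to no change. Of the 6 sites, 5 were lost by total tags and 4 also by TMM. Each site was chosen as the strongest WT peak near its gene in these same libraries. Part of the fall, the ratios and the p-values at these sites can come from that choice, and weaker peaks of the same genes were not all lost. The ratio of WT to KO was 20.2 at Pdk4 (95% counting interval 7.59 to 76.1), with a log2 fold change of -4.26 ± 0.47 (SE) and adjusted p = 1.7e-05, and by TMM it was -2.77 (adjusted p = 0.00334). Plin2 was lost by total tags only, at 6.61 times (3.11 to 16.1, edgeR adjusted p = 4.0e-04) with adjusted p = 0.268 by TMM. Fgf21 passed under neither scaling (ratio 2.46, 1.03 to 6.5, edgeR adjusted p = 0.183 and 0.932).

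**Figure D1:**
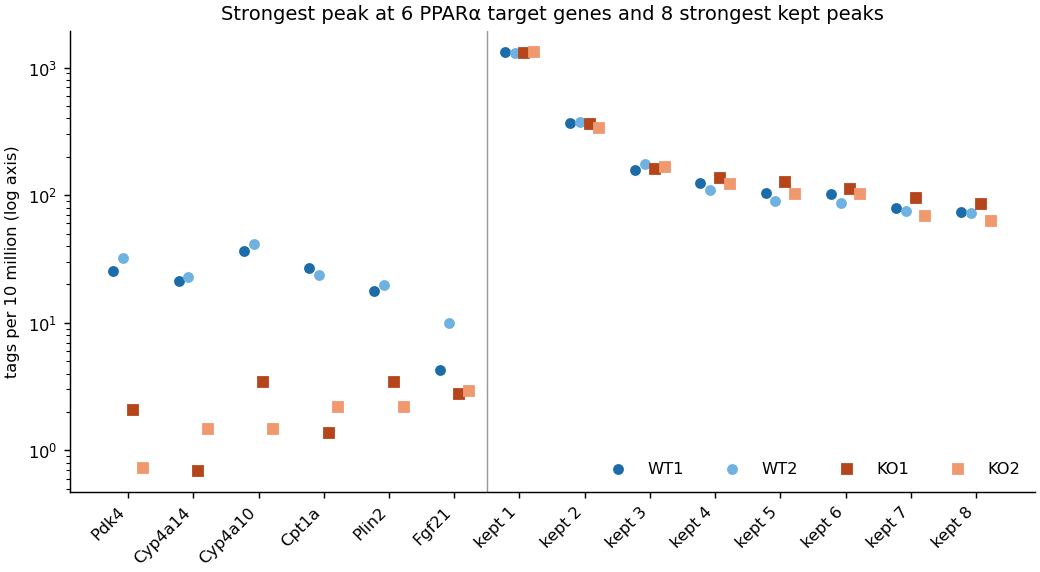
Tags per 10 M (log axis) in each of the 4 libraries (circles WT, squares KO) at the strongest peak of 6 target genes, left of the line, and at the 8 kept peaks with the most KO tags, right of it. The WT points stand above the KO points at all 6 target genes, and the 4 points lie together at the kept peaks. Both sets of sites were chosen by their tags in these same libraries.

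Over all peaks, 40241 had at least 1 tag and were tested. By total tags 11111 peaks were lost, which is 27.6% of those tested, and 6 were higher in KO (0.0149%). By TMM 986 peaks were lost (2.45%) and 143 were higher (0.355%). All 986 were also lost by total tags, of which they are 8.87%, and 0 peaks lost by total tags were higher by TMM. The median log2 fold change of all peaks was -1.68 by total tags and -0.19 by TMM, a shift of 1.49, and the peaks lower in KO made up 99.9% of the calls of both directions by total tags and 87.3% by TMM. With peaks that have 0 KO or 0 WT tags set to the bound that 3 tags over the group allow, the median by total tags was -1.56. A TMM value is thus a difference relative to the typical peak of the table.

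The count of lost peaks by total tags depended on both WT libraries. With either WT library left out, 0 peaks passed the adjustment in edgeR, although 13424 peaks (without WT1) and 11590 (without WT2) were lower at an unadjusted p under 0.05, and with a KO library left out 8826 and 8046 passed (KO1 and KO2 left out). DESeq2 called 7501 peaks lost with size factors from total tags and 455 with its own.

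**Figure D2:**
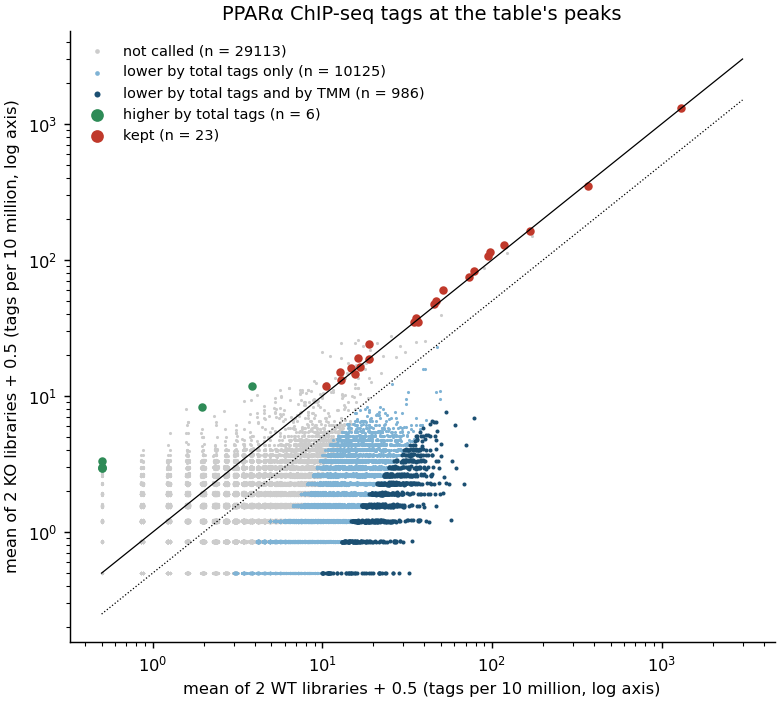
Mean tags per 10 M of the 2 WT (x) and 2 KO libraries (y) at each of the 40253 peaks, with 0.5 added and both axes logarithmic, coloured by class. The solid line marks equality and the dotted line a 2-fold lower KO value, and the 23 kept peaks follow the solid line while the lost peaks lie below the dotted line.

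The lost peaks went from medians of 14 and 15 tags in WT to 2 and 2 in KO. Their tags per 10 M summed to 127227 and 140871 in WT and to 18960 and 17421 in KO, a KO to WT ratio of 0.136. Both WT libraries lay above both KO libraries at 11108 of the 11111, and 764 had 0 KO tags. The lost peaks were chosen from these 4 libraries, so these values follow from the choice and are no test. Among all tested peaks both WT libraries lay above both KO libraries at 27491 (68.3%) and below both at 651 (1.62%). The last peak called had 5, 7, 1 and 1 tags in WT1, WT2, KO1 and KO2 (adjusted p = 0.04998), and the first peak not called had 8, 6, 2 and 0 (adjusted p = 0.05006). The 29142 peaks not called lost had a median log2 fold change of -1.21 and medians of 3 and 4 tags in WT and 2 and 1 in KO.

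The 10 lost peaks with the most WT tags had 63 to 112 tags in the WT libraries and 0 to 13 in the KO libraries, and all 10 were also lost by TMM. The strongest, chr1:90175748-90175955 upstream of Hjurp, had 112 and 101 tags in WT and 10 and 8 in KO, a ratio of 12.3 (7.58 to 21.1). The peak upstream of the carboxylesterase gene Ces1e had 89 and 101 tags in WT and 6 and 5 in KO. Both KO libraries lay below both WT libraries at each of these sites.

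A peak in the first intron of Ehhadh, the bifunctional enzyme of peroxisomal beta-oxidation, had 76 and 80 tags in WT and 5 and 3 in KO. A peak in an intron of Cpne5 had 78 and 77 tags in WT and 0 and 2 in KO, a ratio of 80.4 with an interval of 21.9 to 669. Introns of Plpp3, a lipid phosphatase gene, and Slc22a23 held 85 and 80 tags against 4 and 3, and 82 and 68 against 3 and 2. The peaks nearest to Gm5148 (85 and 79 tags against 10 and 6), Mir467h (81 and 63 against 2 and 3) and 1810053B23Rik (66 and 78 against 7 and 13) had the same direction. The last is the only one of these 10 that overlaps a KO peak list. All 10 overlap every one of the 6 PPARα peak lists of WT livers of the Gps2 and Ncor lines, and 2 of the 10 hold a DR1.

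Tags of the peaks within 20000 bp of a transcription start were then summed over the peaks whose nearest start is that of the gene. Of 9733 genes, 4525 were lost by total tags (46.5%) and 5 were higher (0.0514%), and by TMM 430 were lost (4.42%) and 85 were higher (0.873%). With a library left out, 3701 to 4393 genes were lost. Of 76 listed PPARα target genes, 70 had a peak. By total tags 63 of the 70 were lost (90%), 0 were higher, and the median log2 fold change was -2.91 against -1.58 for all genes. The target genes also had more tags, a median of 35.8 per 10 M in WT against 6.57 for all genes. A loss is easier to call where tags are many, so the 2 sets are not compared at equal tag level. By TMM 38 of the 70 were lost and 0 were higher, with a median of -1.31 against -0.03. The gene list was written with earlier results of these data known.

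Among genes of mitochondrial beta-oxidation and the carnitine shuttle, 12 of 13 were lost by total tags and 8 by TMM, with a median of -2.89 by total tags. Cpt1a had 87.8 and 88.7 tags per 10 M in WT and 13.7 and 16.9 in KO over 8 peaks (edgeR adjusted p = 1.7e-07), and by TMM its log2 fold change of -0.92 did not reach -1. Acadm, the medium-chain acyl-CoA dehydrogenase, had 65.8 and 66.5 in WT and 10.3 and 7.33 in KO. Hadh, the next dehydrogenase of the cycle, had 50.3 and 67.3 in WT and 11.0 and 8.06 in KO. The ratios of WT to KO were 5.79, 7.47 and 6.11 for these 3 genes, and the groups did not overlap. Hadhb was the one not called lost, with 1 and 3 tags in WT and 1 and 3 in KO.

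Of the 12 genes of peroxisomal beta-oxidation, 11 were lost by total tags and 10 by TMM, and the median was -3.47. Ehhadh had 93.4 and 102 tags per 10 M in WT and 10.3 and 7.33 in KO (log2 fold change -3.45 ± 0.28 SE, edgeR adjusted p = 3.1e-08). Acaa1b, a thiolase, had 97.0 and 93.3 in WT and 9.61 and 10.3 in KO. Both were also lost by TMM, at adjusted p of 1.6e-05 and 7.3e-05 (edgeR). Pex11a, which divides peroxisomes, had 6 and 2 tags in WT and 4 and 3 in KO and was not called.

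Of 6 Cyp4a genes, the fatty acid omega-hydroxylases of the endoplasmic reticulum, 5 were lost by total tags and 3 by TMM. Cyp4a31 had 58.0 and 70.4 tags per 10 M in WT and 5.49 and 1.47 in KO. Cyp4a10 had 48.1 and 58.1 in WT and 4.12 and 5.13 in KO, and Cyp4a32 had 35.4 and 55.1 in WT and 2.06 and 6.6 in KO. Cyp4a14 had 23.4 and 33.7 in WT and 4.12 and 2.93 in KO and passed by total tags only (edgeR adjusted p = 8.8e-06, and 0.0569 by TMM). Cyp4a12b, with 1 and 2 tags in WT and 0 and 1 in KO, was not called. These genes lie in a cluster of near-identical copies and only uniquely mapped tags were counted, so the split of tags between them is uncertain.

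Bdh1, which makes the ketone body beta-hydroxybutyrate, had 19.8 and 22.2 tags per 10 M in WT and 6.18 and 6.6 in KO and was lost by total tags only (edgeR adjusted p = 0.00111, and 0.931 by TMM).

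Of 12 genes for acyl-CoA thioesterases, synthetases and fatty acid uptake, 11 were lost by total tags and 5 by TMM. Slc27a2, a fatty acid transporter with very long-chain acyl-CoA synthetase activity, had 137 and 154 in WT and 15.1 and 19.8 in KO. Acsl1, which activates long-chain fatty acids, had 108 and 95.6 in WT and 17.9 and 22.7 in KO (edgeR adjusted p = 2.4e-07, and 0.0607 by TMM). Acot4, a peroxisomal thioesterase, had 91.3 and 111 in WT and 11.7 and 8.06 in KO. Acot12, a cytosolic thioesterase for acetyl-CoA, had 28 and 35 tags in WT and 0 and 0 in KO, at least 21.8-fold lower in KO against a floor of 3 tags over both KO libraries (edgeR adjusted p = 8.3e-07). Slc27a1 had 5 and 4 tags in WT and 3 and 2 in KO and was not called.

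Of 15 lipid droplet and lipoprotein genes, 13 were lost by total tags and 7 by TMM. Angptl4, a secreted inhibitor of lipoprotein lipase, had 115 and 134 in WT and 8.24 and 13.2 in KO (edgeR adjusted p = 3.1e-08, and 3.2e-06 by TMM). Mgll, which cleaves monoglycerides, had 101 and 120 in WT and 14.4 and 11.0 in KO. Apoa1, the main protein of HDL, had 108 and 117 in WT and 49.4 and 35.9 in KO, a ratio of 2.61, and its direction turned with the scaling, from a log2 fold change of -1.39 ± 0.22 (SE) by total tags to 0.21 by TMM (edgeR adjusted p = 2.5e-05 and 0.61). Fitm1 and Vldlr, with 3 and 1 and with 1 and 0 WT tags, were not called.

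All 9 genes for fuel switching, hormones and regulators were lost by total tags and 4 by TMM. Pdk4 had 78.6 and 85.7 in WT and 12.4 and 9.53 in KO over 6 peaks, a log2 fold change of -2.89 ± 0.28 (SE, edgeR adjusted p = 9.6e-08, and 0.00154 by TMM). Ucp3, a mitochondrial uncoupling protein, had 41.1 and 42.8 in WT and 4.12 and 3.66 in KO. Fgf21 had 17.7 and 22.2 in WT and 8.93 and 8.06 in KO over 5 peaks, and its log2 fold change was -1.22 ± 0.38 (SE) by total tags and 0.38 by TMM (edgeR adjusted p = 0.0107 and 0.663). The call for Fgf21 was also lost without WT2 (adjusted p = 0.0647) and without KO2 (0.0524).

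The genes of receptors that bind DR1 elements or pair with PPARα carry PPARα peaks themselves, and 8 of 11 were lost by total tags and 2 by TMM. Of all genes, 46.5% were lost by total tags and 4.42% by TMM. The receptor genes had a median of 16 tags per 10 M in WT against 6.57 for all genes, so the sets are not compared at equal tag level. Ppara had 108 and 106 in WT and 15.8 and 13.9 in KO over 9 peaks assigned to it (edgeR adjusted p = 6.0e-08, and 7.5e-04 by TMM). Nr2f6, an orphan receptor of the COUP family, had 38.2 and 32.1 in WT and 1.37 and 2.93 in KO (edgeR adjusted p = 5.3e-07, and 0.0011 by TMM). Pparg had 47.4 and 43.6 in WT and 8.24 and 12.5 in KO, and Nr2c1, a testicular receptor, had 32.6 and 30.6 in WT and 8.93 and 5.86 in KO. Both were lost by total tags only.

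Among those with fewer WT tags, Hnf4a, a master regulator of hepatocytes that itself binds DR1, had 10.6 and 9.94 in WT and 3.43 and 1.47 in KO (edgeR adjusted p = 0.00814). Nr2c2 had 5.66 and 9.18 in WT and 2.75 and 0.733 in KO (0.0286), Rxrg had 10.6 and 14.5 in WT and 3.43 and 0.733 in KO (0.00179), and Ppard had 9.91 and 22.2 in WT and 8.93 and 5.13 in KO (0.0448, edgeR adjusted p in each case). By TMM none of these 4 passed, and Ppard turned to 0.44. Nr2c2, Hnf4a and Ppard lost the call without KO2 (adjusted p = 0.197, 0.0835 and 0.211), and Nr2c2 and Ppard also without WT2 (0.139 and 0.558).

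Rxra, the main partner of PPARα in liver, had 21.9 and 26.8 in WT and 17.2 and 13.9 in KO and did not pass (log2 fold change -0.64 ± 0.32 SE, edgeR adjusted p = 0.109). By TMM its value was 0.96 (adjusted p = 0.0534). With peaks up to 100000 bp from the start summed, Rxra passed by total tags, with a log2 fold change of -1.89 (edgeR adjusted p = 2.0e-08). Rxrb had 4.25 and 3.82 in WT and 0.687 and 2.2 in KO, and Nr2f2 had 2.83 and 9.94 in WT and 5.49 and 1.47 in KO with overlapping groups. Neither passed, and both turned direction by TMM (0.09 and 0.76).

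Other gene lists can be set beside the target genes, but their tag levels differ. The median WT tags per 10 M were 52.5 for hepatocyte markers, 14.8 for clock genes and 3.68 for ribosomal protein genes. For the target genes the median was 35.8. Of all genes, 46.5% were lost by total tags and 4.42% by TMM. All 10 hepatocyte marker genes were lost by total tags (median -1.71) and 1, the fibrinogen gene Fgb, by TMM (median -0.11). Alb, the albumin gene, had 62 and 79 tags in WT and 20 and 22 in KO. Of 15 circadian clock genes, 9 were lost by total tags and 0 by TMM (median -1.75 and -0.16), while Dbp was higher by TMM only (1.18, edgeR adjusted p = 0.0239). Of 16 ribosomal protein genes with a peak, 2, Rps19 and Rpl30, were lost by total tags (12.5%, median -1.07, or -0.86 with the gene at 0 KO tags set to its bound). By TMM 0 were lost, the median turned to 0.49, and Rps6 was higher by TMM only (1.44, edgeR adjusted p = 0.0371). Of 14 markers of Kupffer, endothelial, stellate, bile duct and lymphoid cells, 2 had a peak at all, Kdr with 4 and 4 tags in WT and 0 and 0 in KO and Pecam1 with 11 and 19 in WT and 5 and 4 in KO. Both were lost by total tags and neither by TMM.

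Whether a site was bound by the same antibody in livers of another mouse line is a measure that the 4 libraries did not enter. Of the 40253 peaks, 23362 overlap all 6 PPARα peak lists of WT livers of the Gps2 and Ncor lines, and 40.5% of these were lost by total tags and 4.09% by TMM. Of the 1949 peaks in none of the 6 lists, 6.31% and 0.154% were lost. The peaks were then put in 5 equal bins by their tags in Ncor WT livers. From the weakest to the strongest bin, the median log2 fold change by total tags went from -1.02 to -1.30, -1.56, -1.91 and -2.39, and the share of lost peaks from 6.72% to 12.1%, 19.8%, 35.9% and 69.4%. The share lost by TMM was 0% in the weakest bin and 11.2% in the strongest.

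In the weakest bin the mean peak had 2.34 and 2.77 tags per 10 M in WT and 1.19 and 1.08 in KO. In the strongest bin it had 12.3 and 13.7 in WT and 2.63 and 2.39 in KO. Both WT and KO means were higher in the strongest bin. Weak peaks have few tags, and a loss of the same size is harder to call there.

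**Figure D3:**
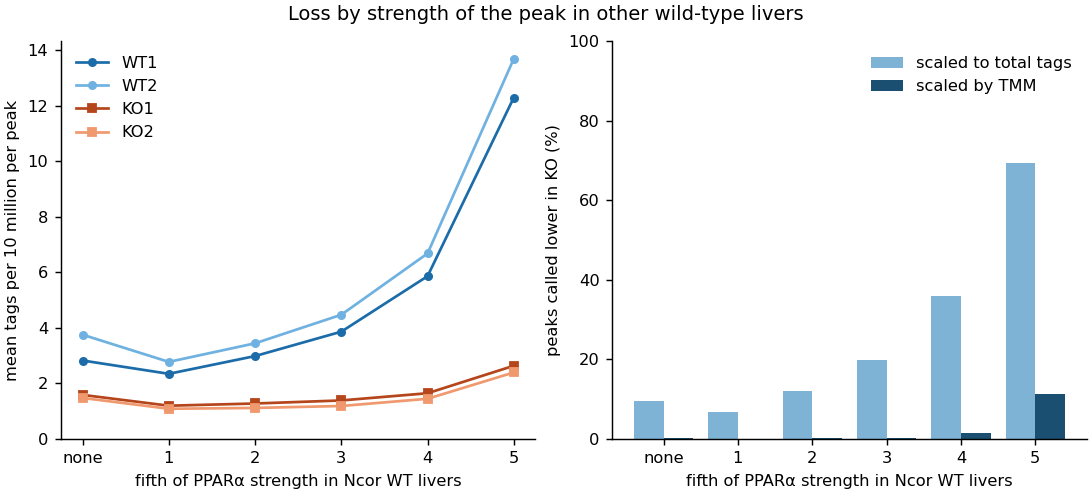
Left, mean tags per 10 M per peak in each library against the bin of PPARα strength in Ncor WT livers (none, no overlapping peak, 1 weakest, 5 strongest). Right, percent of the peaks of each bin called lost by total tags and by TMM, which reach 69.4% and 11.2% in bin 5.

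The sequence under the peaks also separated the classes. A DR1 with at most 2 mismatches lay in the 200 bp around the centre of 13.9% of all peaks, 20.9% of the peaks lost by total tags, 27.2% of those lost by TMM and 11.3% of the peaks not called. Windows moved 10000 bp to either side held one in 3% and 3.07%. A plain AGGTCA was found in 41.2% of lost peaks and 29.2% of others. Within the strongest of the 5 bins, 84.1% of peaks with a DR1 and 66.3% of those without were lost, and within the weakest bin 10.6% and 6.13%. Peaks with 0, 1 or 2 mismatches were lost in 41.7%, 40.9% and 41.4% of cases, and those whose best match had 5 mismatches in 14.1%. Of the DR1 matches, 48.3% in lost peaks and 49.6% in the others lay within 25 bp of the centre, so position did not separate them.

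Other spacings of the repeat differed less between the classes. The pair with no spacer lay in 9.46% of lost peaks and 8.04% of the others, and with 2 bases between the elements the shares were 8.37% and 5.52%. Elements of promoters went the other way. GGGCGG, a site of SP factors, lay in 5.78% of lost peaks and 14.0% of the others, CCGGAAG, a site of ETS factors, in 0.981% and 2.93%, and the NRF1 element in 0.243% and 0.913%. The CTCF element lay in 1.25% and 3.38%. TGTTTAC, a site of FOXA factors, lay in 7.08% and 6.05%, and the C/EBP pattern TTGCNNAA in 21.1% and 17.1%. Both strands were searched, a match is not a bound site, and genes and peaks share regions, so these shares carry no test. Lost peaks also had more WT tags than the others, with medians of 14 and 15 against 3 and 4, and lay less often near a transcription start. Apart from DR1, the elements were not compared at equal tag level.

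**Figure D4:**
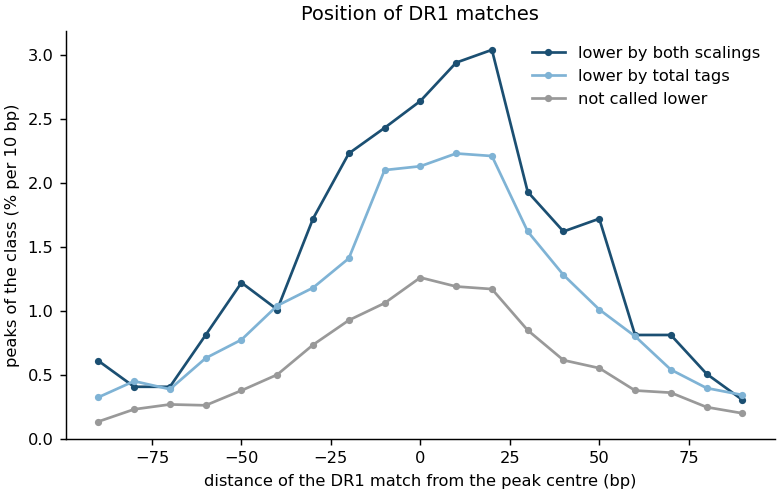
Percent of the peaks of each class (y) whose best DR1 match, with at most 2 mismatches, lies in each 10 bp step from the peak centre (x). All 3 lines are highest near the centre. The line of peaks not called is the lowest in every step, and that of peaks lost by both scalings lies above that of all peaks lost by total tags in the steps near the centre but crosses it farther out.

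Peaks near promoters were less frequent among the lost. Of the lost peaks 10.0% lay within 1000 bp of a transcription start, against 21.3% of the peaks not called. Peaks of H3K4me3, a mark of promoters, in both Gps2 WT livers overlapped 26.4% and 34.4%, and peaks of H3K27ac, a mark of active promoters and enhancers, overlapped 85.0% and 76.0%. These shares also changed with the strength of a peak. From the weakest to the strongest of the 5 bins, 18.2%, 23.2%, 21.6%, 16.2% and 11.3% lay near a start. The share with H3K27ac was 57.5% in the weakest bin and 93.5% in the strongest. Lost peaks have more tags, so the classes are not compared at equal tag level. In the RNA-seq of 4 Gps2 WT livers, the genes that lost tags had a median of 9.78 RPKM (reads per kilobase and M reads), other genes with a peak 5.27 and genes without a peak 1.37.

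Sites that kept their signal were defined as those in both KO peak lists whose 95% interval of the log2 fold change lay between -1 and 1 by total tags. There were 23, from 39 peaks in both KO lists. Narrow intervals need many tags, so 52 peaks in the whole table had one. The 23 peaks held 3825 and 3468 tags in WT and 4108 and 3620 in KO, that is 1.27% and 1.09% of the tags in peaks in WT and 4.33% and 4.57% in KO. Per 10 M tags they had 2708 and 2652 in WT and 2821 and 2653 in KO, a KO to WT ratio of 1.02. That ratio follows from the choice of the peaks in these same libraries and is no test. The strongest kept peak alone had 1314 and 1292 per 10 M in WT and 1303 and 1321 in KO. By TMM all 23 were called higher in KO (median 1.61), since that scaling lifts every KO value.

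The 3 strongest kept peaks are shown to let their sequence be read beside that of the lost sites. The first 2 are annotated as the satellite repeat GSAT_MM and the third as the satellite SYNREP_MM, and none has a DR1 in capitals.
Kept peak 1, chr2:98507214-98507373: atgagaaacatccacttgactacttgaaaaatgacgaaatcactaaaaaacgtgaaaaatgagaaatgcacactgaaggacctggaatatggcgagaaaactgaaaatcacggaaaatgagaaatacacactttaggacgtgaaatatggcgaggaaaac
Kept peak 2, chr12:3109903-3110062: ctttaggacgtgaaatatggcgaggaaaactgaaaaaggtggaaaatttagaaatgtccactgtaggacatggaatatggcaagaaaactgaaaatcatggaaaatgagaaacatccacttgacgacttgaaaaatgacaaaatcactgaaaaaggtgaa
Kept peak 3, chr6:103599134-103599293: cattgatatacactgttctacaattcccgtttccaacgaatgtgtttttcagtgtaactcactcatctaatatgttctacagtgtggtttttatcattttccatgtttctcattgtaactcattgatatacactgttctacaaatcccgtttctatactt
Their best DR1 matches have 5, 4 and 6 mismatches of 12.

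The first kept peak had 1856 and 1690 tags in WT and 1898 and 1802 in KO, a log2 fold change of 0.01. The second had 518 and 488 in WT and 526 and 462 in KO, and the third 223 and 229 in WT and 232 and 225 in KO. Among the 10 with the most KO tags, 6 are annotated as copies of LSU-rRNA or SSU-rRNA, the ribosomal RNA repeats. The strongest of these, nearest to Cdk8, had 177 and 144 tags in WT and 199 and 166 in KO. Those near Pex2 (147 and 118 against 183 and 140), Filip1l (144 and 113 against 163 and 139) and Txndc11 (113 and 99 against 139 and 94) followed.

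The peak near Limd1 (104 and 95 tags in WT and 124 and 86 in KO) is the only one of these 10 not annotated as a satellite or ribosomal repeat. The peaks near Gm8579 (72 and 67 against 101 and 69) and Igf2bp3 (65 and 61 against 76 and 64) close the 10. At the second kept peak both KO libraries, at 361 and 339 tags per 10 M, lay slightly below both WT libraries, at 367 and 373, with a log2 fold change of -0.08 (edgeR adjusted p = 0.361). Of all 23, 15 are annotated as satellite or ribosomal RNA repeats, 0 have a DR1, 3 overlap H3K27ac in both livers, and 1 lies within 1000 bp of a start. Of the 11111 lost peaks 0 are annotated as such repeats, and of all 40253 peaks 31 are. A gene named here is only the nearest start, and for the satellite peaks it can be far away, 1199479 bp for the first.

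The kept sites also held tags with other antibodies and in other mice. In the table of NCOR, 21 of the 23 overlap a peak, with 1071 to 1124 tags per 10 M in the 3 WT and 1078 to 1186 in the 3 KO libraries of the Pparα line. In the table of PPARα in Ncor WT and LKO livers 22 overlap a peak, with 1949 to 2306 in 6 libraries. In the table of GPS2, 19 overlap a peak, with 1821 to 3157 in WT and 3024 to 3230 in KO. The single low value there, 1821, belongs to WT library 3. With the PPARα antibody in Gps2 WT and LKO livers, 21 overlap a peak, with 1044 to 1532. The strongest kept peak gave no value with NCOR or in the Gps2 line. It held 887 to 957 tags per 10 M in the Ncor line and 551 to 1301 with GPS2. These sums thus cover different peaks, and their levels are not compared between antibodies or lines.

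Of the 16 peaks in both KO lists that were not kept, 2 were lost. The one near Mir122, the liver microRNA, had 40 and 45 tags in WT and 15 and 14 in KO (edgeR adjusted p = 6.6e-04), and an intron of C4bp-ps1 had 36 and 33 in WT and 17 and 16 in KO (0.00901, edgeR adjusted p). These are sites with a loss that still left enough tags to be listed in KO. An intron of Cyp2f2, a cytochrome P450 gene, had 25 and 26 tags in WT and 16 and 18 in KO and was not called. The ribosomal repeat near Myom2 had 19 and 15 in WT and 38 and 30 in KO (log2 fold change 0.94, edgeR adjusted p = 0.0249), which did not reach the log2 fold change of 1 that a call needs. Of the 184 peaks in either KO list, 21 were lost by total tags and 97 were higher by TMM. Of all tested peaks, 27.6% were lost by total tags and 0.355% were higher by TMM. Peaks listed in KO were chosen for their KO tags, so these counts follow in part from that choice and are no test.

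Of the 6 peaks higher in KO by total tags, 2 had more than a handful of tags. The peak nearest to G530011O06Rik on the X chromosome had 3 and 6 tags in WT and 15 and 17 in KO (edgeR adjusted p = 0.0226), and the one in an intron of Serpina1c, an alpha-1-antitrypsin gene with near-identical copies, had 3 and 1 in WT and 9 and 13 in KO (0.0371, edgeR adjusted p). Those near Spns2 (4 and 4 KO tags), Tmx4 (4 and 3), Chaf1a (4 and 3) and Sox6os (3 and 4) had 0 tags in both WT libraries, at least 2.25-fold to 2.57-fold higher in KO against a floor of 3 tags over the group. None of the 6 overlaps a WT peak list or holds a DR1. Of the 5 genes called higher, Comtd1 had 1 and 2 tags in WT and 12 and 5 in KO and Gpr52 had 2 and 1 in WT and 12 and 4 in KO. Lamtor5, Mxra8 and Zfp90 had 0 tags in WT and 6 each over both KO libraries.

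The Ppara gene itself, on chromosome 15 from 85565413 to 85633249 on the plus strand, had 24 peaks from 15000 bp upstream to 1000 bp downstream, and those over its coding exons differed from the rest. The 19 other peaks, in introns and upstream, had 317 and 308 tags in WT and 47 and 39 in KO, and 14 of them were lost by total tags. The strongest, in an intron, had 46 and 44 tags in WT and 1 and 2 in KO and holds a DR1 with 1 mismatch. The 5 peaks over coding exons had 41 and 13 tags in WT and 23 and 114 in KO.

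The exon peak with the most tags, chr15:85628279-85628595 over the fifth of 6 coding exons, had 18 and 8 tags in WT and 8 and 49 in KO (edgeR adjusted p = 0.172). KO library 2 was the highest of the 4 libraries at each of the 5 exon peaks, with 14 to 49 tags. None was called by total tags, and 4 of the 5 were called higher by TMM. The deposited annotation gives Cdpf1 as the nearest start of these exon peaks, so they are not in the tags summed for Ppara. Tags over exons do not show whether the gene is transcribed, and RNA of these KO livers was not analysed here.

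**Figure D5:**
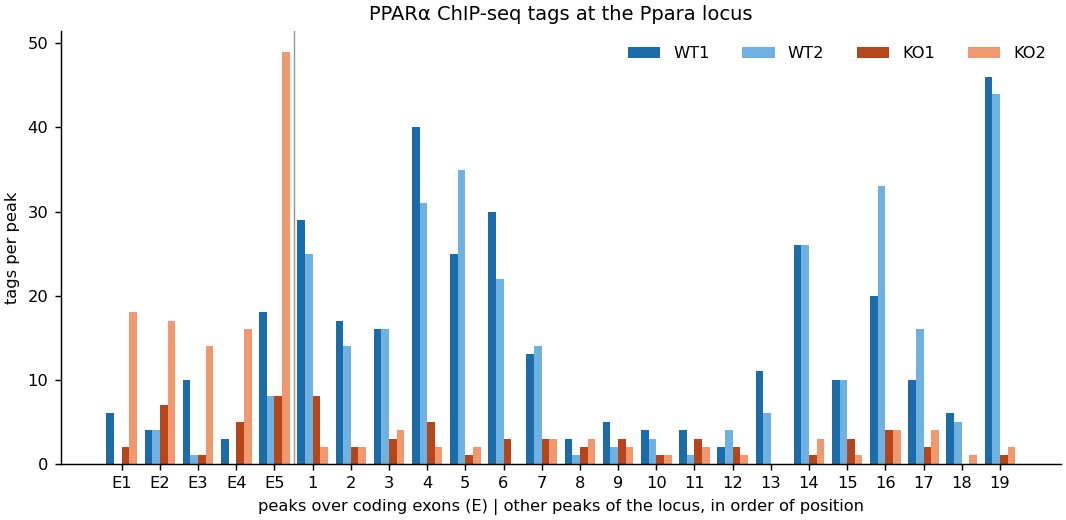
Tags per peak in the 4 libraries at the 5 peaks over coding exons of Ppara (E1 to E5) and the 19 other peaks of the locus, in order of position. KO2 is highest at E1 to E5, reaching 49 tags, while the WT bars are highest at most other peaks.

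The corepressor subunits GPS2 and NCOR, parts of the complex that represses PPARα target genes, were profiled in 3 WT and 3 KO livers of the same line, and their tags at PPARα sites do not enter the choice of the lost and kept sites. At the 8074 GPS2 peaks that overlap a lost site, GPS2 had 101816, 92855 and 184947 tags per 10 M in WT and 75766, 68284 and 33086 in KO. The groups did not overlap. At the 7815 GPS2 peaks that overlap no peak of the PPARα table it had 52212, 52311 and 78698 in WT and 44638, 40743 and 27867 in KO, also lower in KO. The log2 ratio of lost to kept sites was 5.55 ± 0.963 (SD, n = 3) for WT libraries and 4.15 ± 0.613 (SD, n = 3) in KO, a difference of -1.40 (exact permutation test, two-sided, p = 0.1, the smallest for 3 against 3). WT library 3 and KO library 3 stood apart, and without both the difference was -0.50 (exact permutation p = 0.33, the smallest for 2 against 2 libraries). It was -0.85 without WT library 3 alone (exact permutation p = 0.2), and -0.09 with the classes set by TMM, where 1 peak was kept (exact permutation p = 0.5).

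The log2 ratio of GPS2 at lost sites to that at peaks outside the PPARα table was 1.01 ± 0.21 (SD, n = 3) for WT libraries and 0.59 ± 0.29 (SD, n = 3) in KO, a difference of -0.42 (exact permutation p = 0.1). Leaving out libraries here was chosen after seeing the data. The difference was -0.25 without KO library 3 and -0.14 without library 3 of both groups (exact permutation p = 0.2 and 0.33). For NCOR the ratio of lost to kept sites was 9.33 ± 0.144 (SD, n = 3) for WT libraries and 9.01 ± 0.272 (SD, n = 3) in KO, a difference of -0.33 (exact permutation p = 0.2). It was -0.18 without KO library 3 and -0.10 without library 3 of both groups (exact permutation p = 0.4 and 0.667), and -0.17 with the classes set by TMM (exact permutation p = 0.1). Its ratio to peaks outside the PPARα table was -0.32 ± 0.02 (SD, n = 3) for WT libraries and -0.25 ± 0.05 (SD, n = 3) in KO (exact permutation p = 0.1), the opposite direction.

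At the 6 target sites 12 comparisons of GPS2 or NCOR tags were made, and every raw p of 0.1, the smallest for 3 against 3 libraries, became 0.171 after Benjamini-Hochberg adjustment (exact permutation tests). At the Pdk4 site NCOR had 92.7, 85.1 and 96.9 tags per 10 M in WT and 44.1, 31.6 and 19.2 in KO (exact permutation p = 0.1), and at Cyp4a14 102, 111 and 99.4 in WT and 64.6, 68.7 and 22.1 in KO (exact permutation p = 0.1). At Plin2 it had 50.4, 39.6 and 44.7 in WT and 34.3, 16.8 and 14.2 in KO (exact permutation p = 0.1). The KO libraries lay below the WT libraries at these 3 sites. NCOR tags were also lower in KO at the 76924 NCOR peaks that overlap no peak of the PPARα table. Summed there, NCOR had 863642, 830423 and 957236 tags per 10 M in WT and 748289, 799301 and 568623 in KO. At Cpt1a it had 131, 110 and 120 in WT and 137, 139 and 107 in KO (exact permutation p = 0.6), and at Cyp4a10 107, 119 and 108 in WT and 129, 108 and 89.7 in KO (exact permutation p = 1), with overlapping groups. At Fgf21 NCOR had 63.4, 48.2 and 77.5 in WT and 57.2, 64.6 and 54.1 in KO (exact permutation p = 0.7), also overlapping.

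GPS2 tags at these sites were fewer. At the Cyp4a10 site GPS2 had 18, 20.8 and 38.5 tags per 10 M in WT and 12.4, 12.1 and 3.61 in KO (exact permutation p = 0.1), and its groups also did not overlap at Pdk4, Cyp4a14 and Fgf21 (exact permutation p = 0.1 each). At Cpt1a it had 20.1, 13.7 and 34.6 in WT and 16, 15.9 and 7.93 in KO (exact permutation p = 0.3), and at Plin2 18, 9.75 and 20 in WT and 10.2, 4.54 and 4.33 in KO (exact permutation p = 0.2). The groups overlapped at both of these sites.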

How the data were processed

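Crosslinked liver chromatin (DSG, then formaldehyde) was precipitated with a Millipore PPARα antibody, and tags of 2 WT and 2 KO libraries were analysed at all rows of the deposited table, with the GPS2 and NCOR tables of the same line and the PPARα tables of the Gps2 and Ncor lines. The authors deposited raw tag counts per peak, made with HOMER from uniquely mapped reads (Bowtie2 in the processing notes, mm9), total tags in the column headers and peak lists, of which only positions were used. RNA-seq values are deposited read counts per gene of 4 Gps2 WT livers, from which RPKM was computed. Fold changes, p-values, FDR and other columns of the authors' own comparisons were not used. Depth was 13.1 to 14.6 M tags per library. Intervals (95%, exact binomial) and floors (3 tags) cover counting error only.

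edgeR 4.0.16 (quasi-likelihood, R 4.3.3) was run with library sizes set to total tags and, as alternative, with TMM. DESeq2 1.42.0 was also an alternative. Motifs were read from the mm9 (NCBIM37) genome. The edgeR test was checked on simulated data. The named genes were Pdk4, Cyp4a14, Fgf21, the 3 genes with the most WT tags in each role of the target list and all receptor genes. The named peaks were the 10 lost with the most WT tags, the 10 kept with the most KO tags and up to 5 higher with the most KO tags. The remaining named genes and peaks, among them the sixth peak higher in KO, the genes called higher, the Ppara locus and the peaks in both KO lists, were chosen after their values were seen. A few genes and peaks that these rules select are not reported here. The members and lists were chosen with earlier results of these data known. The chi-square per peak between replicates was 1.40 in WT and 1.98 in KO, so that replicates differed beyond sampling noise at the peaks used. These were the peaks with enough tags, 10408 in WT but only 174 in KO.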

Additional observations from a re-analysis of the deposited data

How the results depend on the processing

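The counts of lost peaks rested on the scaling and on both WT libraries. By TMM 986 peaks were lost, 143 were higher and 1 was kept, and DESeq2 with its own size factors gave 455, 114 and 1. For genes, TMM gave 430 lost and 85 higher, and DESeq2 with its own size factors 118 and 27. edgeR's filter on low counts left 7336 lost peaks, 2 higher peaks and 0 higher genes (7351 peaks lower and 6 higher at an unadjusted p under 0.05, and 1 gene higher). With a replicate block 0 peaks were lost and 0 higher in edgeR (12188 and 7 unadjusted), and 0 genes were higher (2 unadjusted). The replicate numbers pair no animals in the labels, and deviations of same-numbered libraries correlated at 0.0411 over 4459 peaks. With the numbers crossed, chosen after seeing the data, the block gave 11537 lost peaks. Leaving out a library gave 0 to 8826 lost peaks, 0 to 21 higher, 14 to 19 kept and 5 to 10 higher genes, and the value of 0 came without WT1 or without WT2. DESeq2 with total tags called 0 peaks higher (5 unadjusted) and left 14 kept. Of the 6541 peaks in both WT lists, which were chosen by their WT signal, 6472 were lost and 0 higher (2 unadjusted in edgeR). Alternatives chosen after seeing the data left 2 higher and 10 kept among peaks in all 6 other WT lists, and 8 kept without satellite and ribosomal repeats. A DR1 lay in 4.65% of lost peaks with at most 1 mismatch and in 15.1% within 100 bp. The log2 fold change turned positive by TMM and by DESeq2 with its own size factors for Apoa1 (0.21 and 0.28), Fgf21 (0.38 and 0.46), Nr2f2 (0.76 and 0.83), Ppard (0.44 and 0.52), Rxra (0.96 and 1.04) and Rxrb (0.09 and 0.20), and without WT2 for Nr2f2 (0.31, with -2.04 at the other end of the values with a library left out). Of 264 alternative values of 30 named genes, 224 kept direction and side of the threshold, 26 lost the call, 1 gained it and 13 turned direction. The cause was not tested. Peaks with few tags limit what can be called at this depth.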

Other observations

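Tags over the coding exons of Ppara also differed between libraries of the same group in the other tables. With the GPS2 antibody in the Ppara line, WT library 2 had 78 tags over the fifth coding exon, and the other 5 libraries had 3 to 17. With the PPARα antibody in the Ncor line, WT library 2 had 400 tags there, and the other 5 libraries had 3 to 53. With the PPARα antibody in the Gps2 line, WT library 1 had 86 and the others 4 to 45.

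The peak in the first intron of Fasn, the fatty acid synthase gene, had 46 and 3 tags in WT and 19 and 24 in KO, so that the WT libraries lay on either side of the KO libraries. It overlaps both KO peak lists and none of the 6 lists of other WT livers.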
